A study of Mus musculus with 8 samples.

Results

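The sestrins and the genes of the mTORC1 pathway followed here are 9 genes: Sesn1, Sesn2, Sesn3, Ddit4, Eif4ebp1, Deptor, Mtor, Rptor and Tsc2. They were picked by gene symbol from the 32285 genes of the feature list, with earlier results on these hearts already known, so their differences between genotypes in the 4 main cell types below are descriptions that carry no test. The libraries are single-nucleus RNA-seq (snRNA-seq) libraries made from whole hearts of 8 male 9-week-old mice, 4 wild type (WT) and 4 Tafazzin-knockout (labelled KO, here Taz-KO), a mouse model of Barth syndrome. The labels name no treatment, and each library carries the number of its own mouse. Tafazzin (gene Taz) remodels cardiolipin, the signature phospholipid of the inner mitochondrial membrane.

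mTORC1 is a kinase complex on the lysosome that couples growth to amino acids, energy and growth factors. mTOR (Mtor) is its kinase and RAPTOR (Rptor) the subunit that recruits substrates, among them 4E-BP1 (Eif4ebp1), a repressor of cap-dependent translation that is released when mTORC1 phosphorylates it. Tuberin (Tsc2) holds mTORC1 down by switching off the small GTPase RHEB, REDD1 (Ddit4) acts through the TSC complex under stress, DEPTOR (Deptor) binds and inhibits mTOR itself, and the sestrins (Sesn1 to Sesn3) bind GATOR2 and relay leucine shortage and other stress to mTORC1. ATF4, the transcription factor of the integrated stress response, is known to induce Sesn2, Ddit4 and Eif4ebp1, whereas p53 and FoxO factors are known inducers of Sesn1 and other family members. All values below are transcript levels in nuclei, and none measures mTORC1 activity.

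The members lie on 7 autosomes of GRCm38, and all are protein coding in GENCODE vM21. Sesn1 (ENSMUSG00000038332) spans chr10:41809935-41908424, Sesn2 (ENSMUSG00000028893) chr4:132492032-132510501 and Sesn3 (ENSMUSG00000032009) chr9:14275067-14333101. Deptor (ENSMUSG00000022419) spans chr15:55112317-55259271, Eif4ebp1 (ENSMUSG00000031490) chr8:27260329-27276674 and Ddit4 (ENSMUSG00000020108) chr10:59949669-59951834. Mtor (ENSMUSG00000028991) spans chr4:148448611-148557683, Rptor (ENSMUSG00000025583) chr11:119602905-119899576 and Tsc2 (ENSMUSG00000002496) chr17:24595816-24632630. Sesn2 is the only member with another counted gene on its own strand, Gm12981, with which reads could be shared. Deptor, Mtor, Rptor and Tsc2 each overlap 1 gene on the other strand.

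RefSeq promoter windows of 300 bases (GRCm38.p6, from 250 bases before to 50 after the start) were at hand for 7 members. Sesn2 and Ddit4 are shown because both are known ATF4-induced genes with higher mean levels in Taz-KO nuclei in all 4 main cell types, and Sesn1 because its window alone among the members held any searched motif. The Sesn2 and Ddit4 sequences are the stretches of those windows that lie before the annotated gene, 205 bases at chr4:132510502-132510706 and 186 bases at chr10:59951835-59952020, both on the minus strand. The Sesn1 sequence is 30 bases of its 5′ untranslated exon at chr10:41810584-41810613 on the plus strand, with capitals on the FoxO motif, which begins at base 23 after the start RefSeq gives.
Sesn2: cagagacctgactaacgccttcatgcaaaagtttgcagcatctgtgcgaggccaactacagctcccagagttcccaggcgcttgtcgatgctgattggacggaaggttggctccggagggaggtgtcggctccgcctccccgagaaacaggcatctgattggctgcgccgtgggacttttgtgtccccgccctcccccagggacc
Ddit4: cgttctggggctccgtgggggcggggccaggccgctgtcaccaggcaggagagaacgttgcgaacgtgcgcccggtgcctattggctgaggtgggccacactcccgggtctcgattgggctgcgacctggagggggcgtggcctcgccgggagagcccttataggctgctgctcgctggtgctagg
Sesn1: agaaccttctacTGTTTACcagccttttgg

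The FoxO motif TGTTTAC, read on both strands, was present in 3.65% of all 32851 promoters of that length and in 1 of the 8 member promoters. The ATF4/CEBP motif TGATGNAA was present in 3.97% of all promoters, the palindromic glucocorticoid response element in 0.00913% and the CLEAR motif TCACGTGA in 0.974%. None of these 3 was found in the 8 member windows, which says only that these letters are not in these windows.

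The 8 libraries held 169193 barcodes and between 20025456 and 348080773 UMIs (unique molecular identifiers, each a counted transcript). After filtering, 151264 nuclei were clustered, and 9 cell types were named from marker genes, among them cardiomyocytes (CMs, 28842 nuclei), fibroblasts (FBs, 38467), endothelial cells (ECs, 21150) and macrophages (MACs, 12061). Each library except those of Taz-KO mice 4685 and 5301 kept 19071 to 32677 barcodes. The paper describes libraries made from fewer nuclei per heart. Many of the kept barcodes therefore cannot each be a single loaded nucleus, and which of them are was not tested. They are called nuclei throughout, and shares of nuclei are shares of such barcodes. Taz-KO mice 4685 and 5301 stand apart with 3492 and 5571 barcodes against 21190 to 36308 in the other libraries, so the difference of each member in the 4 main types is also given without them in the plot of settings, and pairs of libraries share 2 to 294 barcodes. Levels are CPM, UMIs scaled to a fixed total per sum, over the non-mitochondrial UMIs of a mouse's nuclei of a type. Log2 fold changes are Taz-KO over WT from the edgeR fit, which scales the sums further (TMM). They need not equal the log2 ratio of mean CPM. Each standard error (SE) was derived from the fit, as the absolute log2 fold change over the square root of its F statistic. CM markers were counted outside CMs as well, and whether they came from leaked RNA, remaining doublets or mixed nuclei was not tested: the 8 of 8 detected CM markers, Ryr2 and Ttn among them and none at 0, summed to 9928 to 15270 CPM in WT and 5112 to 13810 in Taz-KO ECs, against 52750 to 71600 CPM in WT and 42370 to 61100 in Taz-KO CMs. Taz itself was lower in Taz-KO CMs (WT 51.5 ± 2.74 CPM, Taz-KO 35.6 ± 7.32, SD, n = 4 each, genotypes not overlapping) with a log2 fold change of -0.65 (SE 0.18, edgeR adjusted p = 0.0319), and its transcript was still counted in every Taz-KO mouse.

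In CMs, Sesn2, Deptor and Eif4ebp1 were higher in every Taz-KO mouse than in any WT mouse, Ddit4 was higher on average with overlapping mice, and Sesn1, Sesn3, Mtor, Rptor and Tsc2 lay close together in both genotypes. These are 3 of 9 members that did not overlap and were higher in Taz-KO, where 15.4% of the 18432 genes tested in CMs did so. All 9 members passed the filter on low counts in CMs, and their median log2 fold change was 0.03 against -0.01 over all genes.

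Sesn2, the stress-induced leucine sensor of the family, was counted at 2.12, 2.50, 2.16 and 2.39 CPM in CMs of WT mice 4686, 4909, 5355 and 5356. In Taz-KO mice 4685, 4910, 5300 and 5301 its levels were 36.5, 21.4, 32.1 and 26.3 CPM. The WT mice lie within a narrow band, and the lowest Taz-KO mouse is far above all of them. The means were 2.29 ± 0.181 and 29.1 ± 6.63 CPM (SD, n = 4 each), from 457 UMIs in WT and 3728 UMIs in Taz-KO CMs, with a log2 fold change of 3.53 (SE 0.20). Without mice 4685 and 5301 the log2 fold change was 3.31, and after subtraction of an ambient profile it was 4.19. That profile was the sum of all barcodes of a library, nuclei included, and not of empty droplets. The share removed treated all FB, EC and MAC marker UMIs in CMs, and all CM marker UMIs in other types, as ambient. A type's own transcripts were therefore partly subtracted too, here and wherever ambient subtraction is named below.

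Deptor, the inhibitor that binds mTOR, was at 21.5, 29.6, 30.3 and 28.3 CPM in CMs of WT mice 4686, 4909, 5355 and 5356. In Taz-KO mice 4685, 4910, 5300 and 5301 it was at 149, 102, 76.7 and 111 CPM. All Taz-KO mice are above all WT mice, and mouse 4685, the heart with the fewest CMs (174 nuclei), is the highest. The means were 27.5 ± 4.04 and 110 ± 29.8 CPM, with a log2 fold change of 1.90 (SE 0.24), 1.52 without mice 4685 and 5301. WT FBs and MACs held far more Deptor than WT CMs, and after ambient subtraction the WT CM level was 5.32 ± 7.73 CPM and the log2 fold change 4.13. FB markers (8 of 8 detected, none at 0) summed to 946 to 4673 CPM in WT and 281 to 3304 CPM in Taz-KO CMs, while smooth muscle markers (6 of 6 detected) summed to 18.6 to 61.2 CPM in WT and 58.7 to 240 CPM in Taz-KO CMs. Mesothelial markers (6 of 6 detected) summed to a median of 22.5 CPM in WT and 45.8 CPM in Taz-KO CMs, with overlapping mice. The part of the smooth muscle and mesothelial markers in these results was not tested, and how much of the WT Deptor count in CMs came from FB RNA was not tested beyond that subtraction.

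Eif4ebp1, which encodes the translation repressor 4E-BP1, was at 28.6, 32.4, 25.1 and 21.5 CPM in CMs of WT mice 4686, 4909, 5355 and 5356. It was at 63.7, 52.3, 55.6 and 46.6 CPM in Taz-KO mice 4685, 4910, 5300 and 5301. The genotypes did not overlap, with means of 26.9 ± 4.66 and 54.6 ± 7.14 CPM and a log2 fold change from the fit of 0.91 (SE 0.14). It was 0.81 without mice 4685 and 5301 and 0.78 after ambient subtraction.

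Ddit4, which encodes REDD1, was at 11.1, 3.44, 5.52 and 7.84 CPM in CMs of WT mice 4686, 4909, 5355 and 5356. In Taz-KO mice 4685, 4910, 5300 and 5301 it was at 12.2, 9.27, 23.2 and 9.79 CPM. WT mouse 4686 lies above Taz-KO mice 4910 and 5301, so the genotypes overlap. The log2 fold change of 0.79 (SE 0.38) was 0.51 without Taz-KO mouse 5300 and 1.08 without WT mouse 4686. The same 2 mice were the highest of their genotype in FBs, ECs and MACs too.

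**Figure D1:**
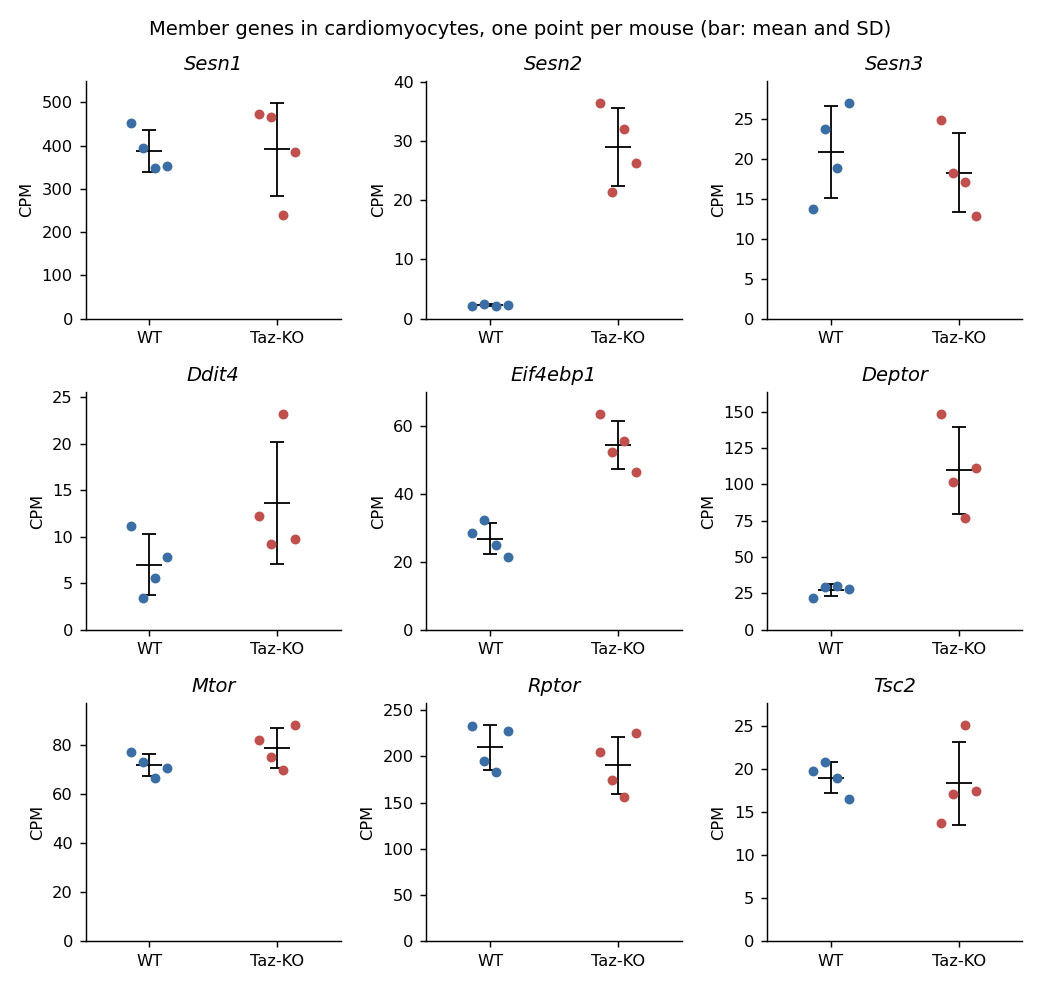
CPM (y axis, from 0) of the 9 members in cardiomyocytes of the 4 WT and 4 Taz-KO mice (x axis), 1 point per mouse with the mean and SD. Sesn2 sits between 2.12 and 2.50 CPM in WT and between 21.4 and 36.5 CPM in Taz-KO mice, Deptor and Eif4ebp1 also separate, and the other 6 members overlap.

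The other family members did not follow Sesn2 in CMs. Sesn1, the abundant sestrin of striated muscle and a known p53 and FoxO target, was at 387 ± 48.5 CPM in WT and 391 ± 108 CPM in Taz-KO CMs, with Taz-KO mouse 5300 lowest at 241 CPM and a log2 fold change of -0.08 (SE 0.26). It was 0.15 without mouse 5300, -0.29 without mice 4685 and 5301 and -0.28 after ambient subtraction. Sesn3, the family member linked to FoxO and AKT, was at 20.8 ± 5.80 and 18.3 ± 4.98 CPM, a log2 fold change of -0.34 (SE 0.25) that became 0.09 after ambient subtraction. Both genes overlapped between genotypes in CMs.

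The core of the complex showed smaller differences in CMs than Sesn2, Deptor and Eif4ebp1. Mtor was at 71.9 ± 4.51 CPM in WT and 78.8 ± 8.08 CPM in Taz-KO CMs, with a log2 fold change of 0.03 (SE 0.18) whose sign depended on the mice included, at -0.19 without mice 4685 and 5301. Rptor was at 210 ± 24.5 and 190 ± 30.8 CPM, a log2 fold change of -0.24 (SE 0.22) that was -0.55 without those mice. It was also negative in FBs (-0.27, SE 0.20), ECs (-0.30, SE 0.24) and MACs (-0.13, SE 0.34), with overlapping mice. Without mice 4685 and 5301 these were -0.47, -0.43 and -0.34. Tsc2, the inhibitor upstream of RHEB, was at 19.0 ± 1.84 and 18.3 ± 4.82 CPM with a log2 fold change of -0.16 (SE 0.17). Mice of both genotypes overlapped for all of Mtor, Rptor and Tsc2.

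CMs of Taz-KO mice also had a larger share of nuclei with a UMI of the higher members when each nucleus was thinned to 2000 UMIs, a step that removes differences in depth (median 9059 to 12480 UMIs per CM nucleus over WT mice and 6907 to 23400 over Taz-KO mice). Thinning left out 36 WT and 244 Taz-KO CM nuclei. For Sesn2 the share was 0.52% ± 0.164 in WT and 6.32% ± 2.83 in Taz-KO CMs (2.61% and 27.5% unthinned), with no overlap, and in ECs of the same libraries it was 0.754% ± 0.117 and 2.70% ± 0.944. For Deptor it was 5.58% ± 0.519 and 17.6% ± 2.78 in CMs (24.0% and 55.9% unthinned), and for Eif4ebp1 5.38% ± 1.19 and 10.5% ± 2.97 (26.4% and 45.2% unthinned). Shares of Sesn1 (49.3% and 50.5%), Mtor (13.2% and 12.4%) and Rptor (33.6% and 30.5%) were close. These are counts of nuclei with a UMI at this depth, and a nucleus without one may still express the gene.

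Within CMs the mean Sesn2 level was higher in Taz-KO mice in each cluster. The members and the list genes were left out of the genes that built the clusters, and mice were aligned before clustering. Such clusters therefore cannot show whether a subset of nuclei held the higher level. In the 3 largest CM clusters (10065, 8341 and 6710 nuclei) Sesn2 rested at 2.18 ± 0.315, 2.95 ± 0.769 and 2.07 ± 0.467 CPM in WT mice and at 24.2 ± 8.89, 27.5 ± 8.37 and 34.1 ± 5.95 CPM in Taz-KO mice (SD, n = 4 each). In a smaller cluster of 1461 nuclei led by Fgf12, Tmem163 and Ryr3 it was at 3.30 ± 1.49 CPM in WT (n = 4) and 21.9 ± 9.69 CPM in Taz-KO mice (n = 3, mouse 4685 having too few nuclei). Deptor was at 25.0 ± 4.89, 29.8 ± 4.93 and 24.9 ± 4.28 CPM in WT and 93.3 ± 14.3, 84.6 ± 14.1 and 128 ± 40.8 CPM in Taz-KO mice in the 3 largest clusters. In the cluster led by Fgf12 it was at 52.1 ± 12.1 and 64.4 ± 13.7 CPM, from 41.4 to 69.3 in WT and from 55.1 to 80.2 in Taz-KO mice, so the genotypes overlap there. The remaining CM clusters held 1152 and 1113 nuclei, with 3 Taz-KO mice each and 4 and 3 WT mice. Sesn2 in them was at 1.81 ± 0.673 and 3.46 ± 1.79 CPM in WT and 37.7 ± 27.7 and 29.2 ± 13.7 CPM in Taz-KO mice. Deptor overlapped in the first (35.2 ± 3.86 and 61.7 ± 43.2 CPM) and not in the second (46.7 ± 6.44 and 127 ± 51.5 CPM). In the first of these clusters mouse 5301 had 10 nuclei, with 8 UMIs of Sesn2 (69.5 CPM) and 2 of Deptor (17.4 CPM). The other Taz-KO mice there were at 18.4 and 25.4 CPM for Sesn2 and at 104 and 64.0 CPM for Deptor, so the Deptor overlap rests on mouse 5301 and the Sesn2 mean is raised by it. Whether the Deptor difference itself varies between clusters was not tested.

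In FBs, ECs and MACs, Sesn2 was again the member that separated the genotypes, and Deptor did not. Sesn2 was the only 1 of 9 members with no overlap in each of FBs, ECs and MACs, where 4.43%, 3.51% and 2.38% of all tested genes lay without overlap and higher in Taz-KO. In FBs of WT mice 4686, 4909, 5355 and 5356 Sesn2 was at 4.60, 3.48, 4.00 and 4.13 CPM, and in Taz-KO mice 4685, 4910, 5300 and 5301 at 25.2, 12.9, 13.9 and 5.93 CPM. In ECs it was at 4.01, 4.11, 3.41 and 3.71 CPM in those WT mice and 16.1, 14.9, 14.7 and 5.99 CPM in those Taz-KO mice. In MACs it was at 2.36, 5.89, 5.41 and 4.92 CPM and at 36.8, 16.1, 15.7 and 7.27 CPM, the value of mouse 4685 resting on 19 UMIs and that of mouse 5301 on 7 UMIs. Mouse 5301 is the lowest Taz-KO mouse in all 3 types and lies close to the WT mice. Mesothelial markers summed to medians of 48.0, 90.1 and 64.05 CPM in WT and 139, 176 and 161 CPM in Taz-KO FBs, ECs and MACs. Smooth muscle markers summed to 82.5, 114 and 98.4 CPM in WT and 150, 179 and 204 CPM in Taz-KO mice. Both lists had overlapping mice, and the medians of CM markers were lower in Taz-KO in each type. The part of these markers in the Sesn2 values was not tested.

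The log2 fold changes of Sesn2 were 1.72 (SE 0.33) in FBs, 1.76 (SE 0.25) in ECs and 1.81 (SE 0.42) in MACs. After ambient subtraction they were 1.38, 1.00 and 1.55, and the genotypes then overlapped in all 3 types. The share of UMIs that this step removed ran from 8.79% to 42.5% in FBs, from 13.8% to 53.3% in ECs and from 11.1% to 52.3% in MACs, and mouse 5301 had the lowest share in each of the 3 types. In an unnamed cluster of 19084 barcodes, whose median UMI count was 0.659 times that of their libraries and whose median mitochondrial share was 25.9%, Sesn2 was at 3.93 ± 0.309 CPM in WT and 21.6 ± 7.01 CPM in Taz-KO mice (n = 4 each). The largest FB cluster, the largest EC cluster and the MAC cluster were not far from it in quality. Their median UMI counts were 0.857, 0.784 and 0.817 times those of their libraries, and their median mitochondrial shares 21.65%, 22.98% and 22.58%. CM RNA counted in other nuclei and expression by FBs, ECs and MACs cannot be told apart for Sesn2 by these values alone.

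Ddit4 was higher on average in the other 3 main types with overlapping mice: 12.8 ± 8.59 in WT and 26.3 ± 14.5 CPM in Taz-KO FBs, 18.5 ± 11.8 and 40.7 ± 12.5 CPM in ECs, and 12.3 ± 10.9 and 24.2 ± 16.3 CPM in MACs. Its log2 fold changes were 1.00 (SE 0.49), 1.09 (SE 0.40) and 1.02 (SE 0.67), and they were 0.65, 0.86 and 0.58 without Taz-KO mouse 5300 and 1.61, 1.64 and 1.82 without WT mouse 4686. Eif4ebp1 had log2 fold changes of 0.66 (SE 0.36), 0.85 (SE 0.40) and 0.99 (SE 0.33) in the same order, with overlap because Taz-KO mouse 5301 was the lowest of its genotype in each, at 20.8 CPM in MACs. Without mice 4685 and 5301 these were 1.02, 1.22 and 1.07.

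Deptor was at 113 ± 19.2 and 135 ± 22.3 CPM in WT and Taz-KO FBs, 60.2 ± 9.27 and 62.1 ± 14.7 CPM in ECs and 115 ± 33.6 and 124 ± 52.6 CPM in MACs. Its log2 fold changes of 0.17 (SE 0.19), -0.02 (SE 0.21) and 0.06 (SE 0.33) were each smaller than their SE, against 1.90 in CMs. After ambient subtraction they were 0.03, -0.51 and -0.28, with overlapping mice in each type. The remaining members, Sesn1, Sesn3, Mtor, Rptor and Tsc2, had log2 fold changes between -0.38 (Sesn1 in MACs) and 0.19 (Tsc2 in MACs) in these 3 types, all with overlapping mice. After ambient subtraction Sesn1 in MACs was at 334 ± 54.0 CPM in WT and 225 ± 79.7 CPM in Taz-KO mice, a log2 fold change of -0.67, and the genotypes then did not overlap.

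**Figure D2:**
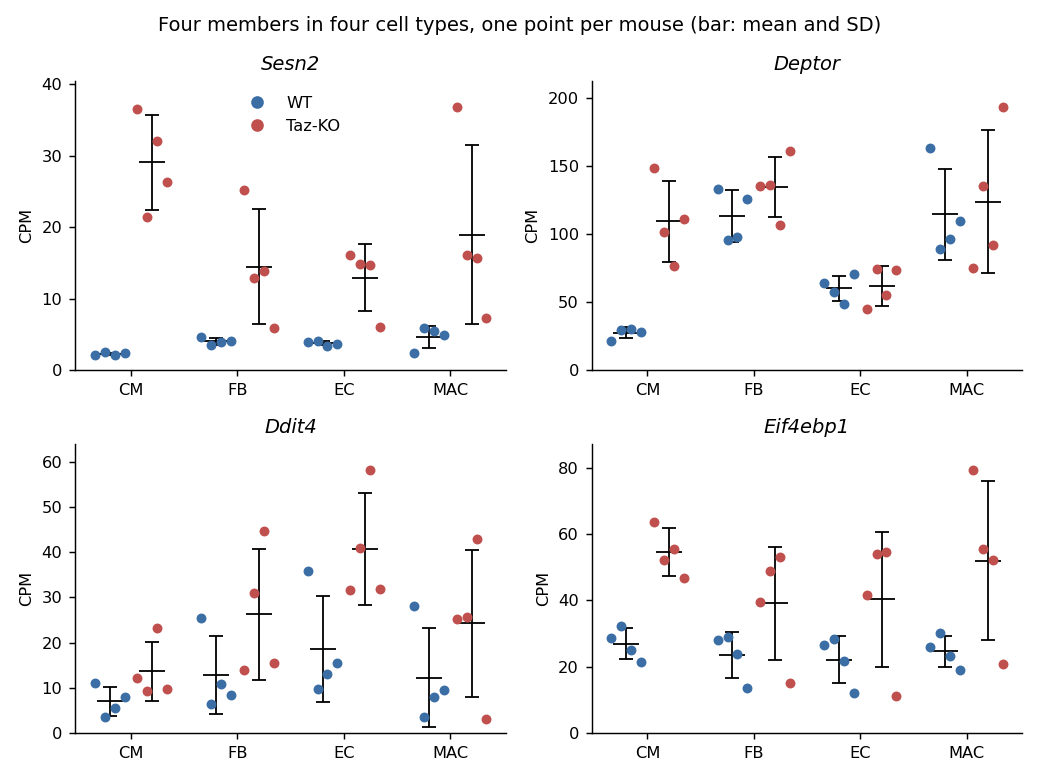
CPM (y axis, from 0) of Sesn2, Deptor, Ddit4 and Eif4ebp1 in CMs, FBs, ECs and MACs (x axis), 1 point per mouse with the mean and SD, WT in blue and Taz-KO in red. Deptor separates the genotypes in CMs alone of these 4 types (27.5 against 110 CPM on average), whereas Sesn2 is higher in the Taz-KO mice of each type.

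Levels of each member were then set side by side among the 4 main cell types. FB markers had median sums of 9067 CPM in WT ECs and 8708 CPM in WT MACs, beside 5386 and 8447 CPM for the own markers of these types. After ambient subtraction WT Sesn1 in ECs was at 84.4 in place of 168 CPM. WT Sesn3 was then at 9.77 in place of 20.8 CPM in CMs and at 77.0 in place of 65.8 CPM in FBs. How much of a level was a type's own expression was not tested. The highest type in WT and the next were picked by their WT means, so no p is given, and the Taz-KO mice, which did not pick the pair, are given on their own as differences in log2(CPM + 1). Among these 4 types Sesn1 was highest in CMs at 387 CPM in WT and next in MACs at 315 CPM, with overlapping WT mice (348 to 453 and 286 to 369 CPM). CMs exceeded MACs by 0.61 ± 0.54 log2 units (SD) in Taz-KO mice, higher in 4 of 4. Sesn3 was highest in FBs at 65.8 ± 22.4 CPM in WT, with MACs next at 30.7 CPM and no overlap, and FBs exceeded MACs by 1.32 ± 0.48 log2 units in 4 of 4 Taz-KO mice. Beyond the 4 types, WT MESs (66.0 CPM) and PCs (61.2 CPM) held Sesn3 at a level close to that of FBs.

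Ddit4 was at 18.5 CPM in ECs and 12.8 CPM in FBs of WT mice, with ECs above FBs by 0.72 ± 0.40 log2 units in 4 of 4 Taz-KO mice. Mtor was at 71.9 CPM in CMs and 62.9 CPM in FBs of WT mice, and CMs exceeded FBs by 0.24 ± 0.095 log2 units in 4 of 4 Taz-KO mice. Tsc2 was at 25.5 CPM in ECs and 24.1 CPM in FBs, with a difference of 0.19 ± 0.18 in Taz-KO mice. The WT mice of both types overlapped for Ddit4, Mtor and Tsc2. Outside the 4 types Ddit4 reached 23.4 CPM in WT LECs and Mtor 130 CPM in WT ADIPOs.

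Sesn2 in WT was at 4.65 CPM in MACs, 4.05 in FBs, 3.81 in ECs and 2.29 in CMs. CMs had the lowest mean of the 4 types with no overlap with ECs. They overlapped MACs, whose lowest WT mouse was at 2.36 CPM against 2.50 CPM for the highest in CMs. Eif4ebp1 was within 22.1 to 26.9 CPM in all 4 types, and Rptor was at 210 CPM in CMs and 174 CPM in MACs. For Eif4ebp1 and Rptor 2 and 3 of 4 Taz-KO mice had CMs above MACs, so the order did not hold in every mouse. Deptor was at 115 CPM in MACs and 113 CPM in FBs of WT mice, and its levels in WT FBs, ECs and CMs did not overlap, CMs being lowest at 27.5 CPM. In Taz-KO mice CMs held the highest mean level of Sesn2 among the 4 types, and their mean Deptor level of 110 CPM lay between those of ECs (62.1) and MACs (124). WT ADIPOs were above all 4 types in mean level for Sesn2 (8.65 CPM), Eif4ebp1 (43.4 CPM), Rptor (218 CPM) and Deptor.

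In the 5 further named types the members that passed the filter on low counts were tested (all but Sesn2 in LECs and SMs and Ddit4 in ADIPOs). The genes were not chosen on those nuclei, but mice and libraries are the same, and markers of other types were counted there. In PCs, CM markers summed to 8729 to 14340 CPM in WT and 3872 to 13170 CPM in Taz-KO mice. PC markers summed to 5651 to 7765 and 4873 to 9670 CPM. The tests are thus not free of that choice, and the part of leaked RNA in these differences was not tested. No member passed an adjusted p of 0.05 in pericytes (PCs), lymphatic endothelial cells (LECs), mesothelial cells (MESs), adipocytes (ADIPOs) or smooth muscle cells (SMs) among 42 edgeR tests, of which 9 had an unadjusted p below 0.05, and DESeq2 called 0. The share of all tested genes called in either direction was 0.101% in PCs, 0.182% in LECs, 0.0961% in MESs, 0% in ADIPOs and 0.0905% in SMs. An unadjusted p below 0.05 was found for 632 of 12815 genes in PCs, 589 of 10960 in LECs and 924 of 12487 in MESs. In ADIPOs it was found for 819 of 9828 genes and in SMs for 410 of 8840. The largest difference among the tests was that of Sesn2 in PCs, at 4.10 ± 1.70 CPM in WT and 12.7 ± 9.61 CPM in Taz-KO mice, with a log2 fold change of 1.95 (SE 0.39, edgeR adjusted p = 0.118). There the WT mice were at 3.67, 5.65, 1.89 and 5.19 CPM and the Taz-KO mice 4910, 5300 and 5301 at 15.5, 23.1 and 12.2 CPM, while mouse 4685 had 0 UMIs of Sesn2 in its 12 PCs. Without the filter on low counts Sesn2 in PCs passed at an edgeR adjusted p of 0.0181 and Ddit4 in ADIPOs, with a log2 fold change of 2.06, at 0.0146. In that setting 72 of 23620 genes were called higher in PCs and 129 of 21566 in ADIPOs. Ddit4 in ADIPOs rested on 16 UMIs in WT and 66 in Taz-KO mice, which overlapped (3.16 to 8.83 and 7.85 to 23.3 CPM).

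Sesn2 had positive log2 fold changes in MESs (0.84, SE 0.36, edgeR adjusted p = 0.628) and ADIPOs (1.34, SE 0.39, edgeR adjusted p = 0.372). In ADIPOs mouse 4685 had 6 nuclei and was left out, so 3 Taz-KO mice remained. There Sesn2 was higher without overlap (5.05 to 11.4 CPM in WT, 15.7 to 28.8 CPM in Taz-KO mice), as 3.59% of all tested genes were. Sesn1 was lower without overlap in ADIPOs (148 to 190 CPM in WT, 86.3 to 145 CPM in Taz-KO mice, log2 fold change -0.45, SE 0.24, edgeR adjusted p = 0.67), as 6.79% of all tested genes were. In PCs, LECs, MESs and SMs the genotypes overlapped for Sesn2. Eif4ebp1 ran from 0.53 in ADIPOs to 1.05 in SMs, with edgeR adjusted p-values between 0.506 and 0.962. Ddit4, in the other 4 types, ran from 0.73 in LECs to 1.39 in SMs, with edgeR adjusted p-values between 0.625 and 0.999. Deptor, Mtor, Rptor, Tsc2, Sesn1 and Sesn3 ranged from -0.52 (Deptor in SMs) to 0.58 (Mtor in ADIPOs) without a call. ADIPOs held the highest mean Deptor level of any named type, 263 ± 172 CPM in WT and 326 ± 93.5 CPM in Taz-KO mice, and the WT mice alone ranged from 87.0 to 494 CPM.

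**Figure D3:**
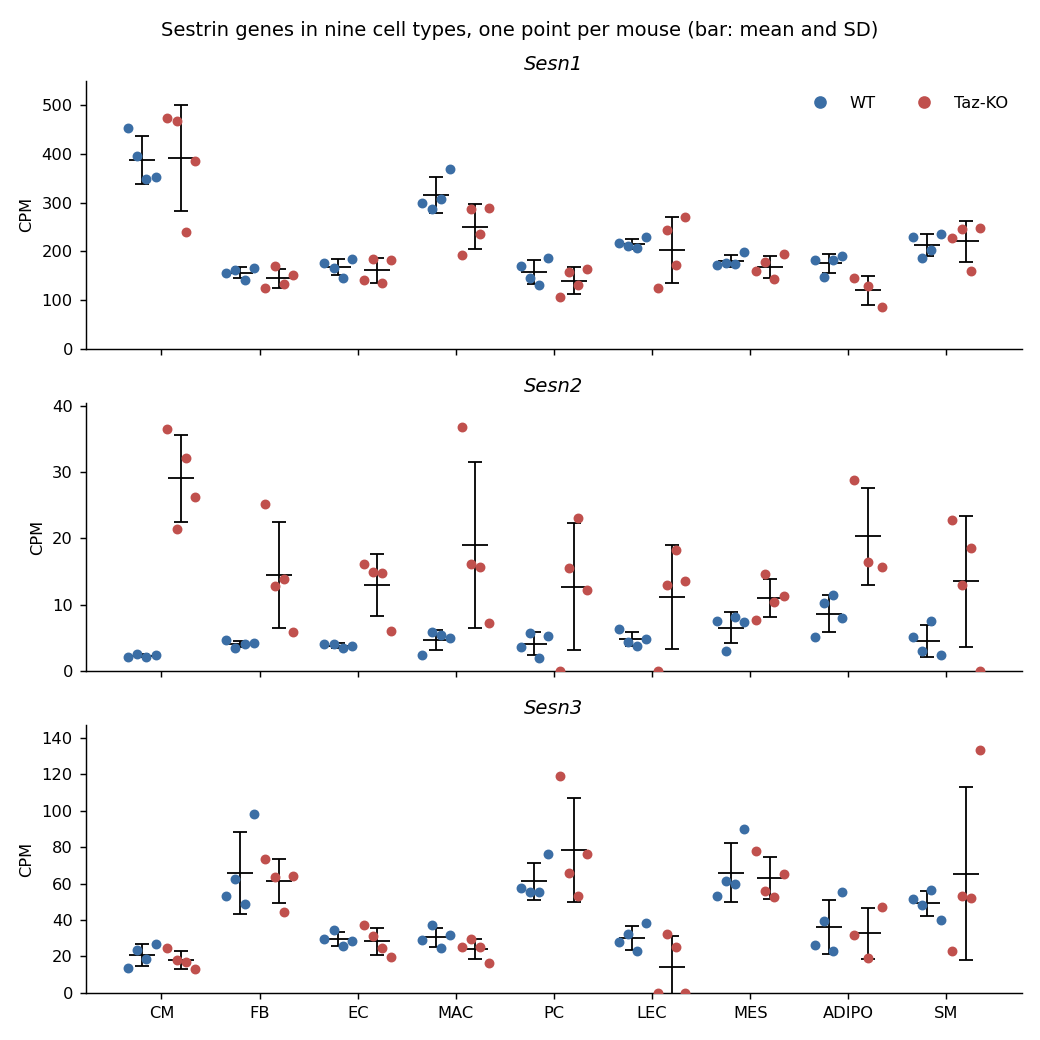
CPM (y axis, from 0) of Sesn1, Sesn2 and Sesn3 in the 9 named cell types (x axis), 1 point per mouse with the mean and SD, WT in blue and Taz-KO in red. Sesn1 has its highest mean in CMs in both genotypes, Sesn3 is lowest in CMs among the 4 main types in WT, and the Taz-KO points of Sesn2 in types with few nuclei reach down to 0.

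To place the members among their neighbours, 83 other genes of the pathway in 4 lists were tested in each of the 4 main types with edgeR, adjusted over all genes. In CMs 3 of 82 tested were higher and 4 were lower in Taz-KO, where 8.79% and 6.62% of all genes were called in those directions, and 47 of the 82 had negative log2 fold changes with a median of -0.06 against -0.01 over all genes. Of the amino acid sensing genes, which hold the GATOR complexes, RAG GTPases and Ragulator, 1 of 27 was called, Castor2, a paralog of an arginine sensor (WT 32.5 ± 4.20, Taz-KO 18.5 ± 2.56 CPM, log2 fold change -0.92, edgeR adjusted p = 0.00921). Of 9 other subunits and assembly factors of the mTOR complexes 1 was called, Telo2, an assembly factor of PIK-family kinases (9.22 ± 0.655 and 16.2 ± 3.30 CPM, 0.68, edgeR adjusted p = 0.0288).

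Of 24 genes around TSC, RHEB and their upstream kinases, Prkab2 was higher (27.2 ± 5.16 and 46.3 ± 6.18 CPM, log2 fold change 0.66, edgeR adjusted p = 0.0153) and Prkab1 lower (12.4 ± 2.56 and 7.57 ± 2.49 CPM, -0.83, edgeR adjusted p = 0.0183). Both encode beta subunits of AMPK, the energy-sensing kinase. Of 22 effectors and substrates of mTORC1, Grb10, an adaptor that restrains insulin signalling, was higher (211 ± 41.8 and 499 ± 117 CPM, 1.12, edgeR adjusted p = 0.0134). Lpin1, a phosphatidate phosphatase, was lower (262 ± 69.6 and 95.2 ± 11.3 CPM, -1.58, edgeR adjusted p = 0.00144), as was Ulk1, a kinase that starts autophagy (31.9 ± 1.84 and 22.0 ± 3.75 CPM, -0.66, edgeR adjusted p = 0.011). Without mice 4685 and 5301, 2 genes of all 8 lists together were called lower in CMs in place of 7, and after ambient subtraction 14 were. Calls over all genes moved in the same direction. With all mice 1221 of 18432 genes were called lower, without those mice 694 of 19429 and after subtraction 1637 of 15113.

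In FBs, ECs and MACs none of the 82, 82 and 79 tested genes of these 4 lists was called by edgeR. Of all genes 0.405%, 0.496% and 0.242% were called in either direction. In each type 2 list genes had an unadjusted p below 0.05, where 1732 of 17762, 1312 of 16136 and 874 of 14065 genes did. DESeq2 called 1, 2 and 0 of the list genes, all lower. Over all genes it called 107 of 20060, 98 of 18733 and 51 of 17700 lower. Median log2 fold changes of the list genes were -0.05, -0.01 and -0.01, and 0.00, 0.01 and 0.02 over all genes. The median SE of these log2 fold changes was 0.19 in FBs, 0.21 in ECs and 0.26 in MACs, and the absence of a call does not show that a gene was unchanged.

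Known targets of the regulators of these members were counted in the same way, with the members left out of the lists. Of 22 ATF4 targets 19 were higher and 0 lower in Taz-KO CMs (median log2 fold change 2.60 against -0.01 over all genes), where 8.79% of genes were called higher. The largest were Asns, which makes asparagine (0.655 ± 0.377 and 39.9 ± 11.9 CPM, log2 fold change 5.79, edgeR adjusted p = 9.37e-06), the amino acid transporters Slc7a3 (5.67) and Slc7a5 (5.06) and the pseudokinase Trib3 (5.63). The list was written with earlier results of these hearts known, so its direction is not independent evidence.

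Of 13 p53 targets 5 were called higher and 1 lower in CMs, beside 8.79% and 6.62% of all genes. Trp53inp1 (24.2 ± 4.03 and 81.7 ± 18.2 CPM, 1.65), Cdkn1a, the cell cycle inhibitor p21 (8.17 ± 5.46 and 20.8 ± 5.34 CPM, 1.25), and Eda2r (4.50 ± 0.551 and 11.3 ± 1.67 CPM, 1.22) were higher, with edgeR adjusted p-values of 0.000326, 0.0459 and 0.00176. Btg2 was lower (68.3 ± 52.9 and 24.6 ± 5.32 CPM, -1.60, edgeR adjusted p = 0.0425) with overlapping mice. Of 17 FoxO targets, Gadd45a was higher (1.74, edgeR adjusted p = 0.00205) and Txnip (-1.18, edgeR adjusted p = 0.0103) and Cited2 (-0.80, edgeR adjusted p = 0.0362) lower, and 15 of the 17 had negative log2 fold changes with a median of -0.28. These counts of 1 higher and 2 lower lie near the shares of all genes and are no result about FoxO targets. Of 12 glucocorticoid targets, a list that includes genes known to rise with stress hormones as Ddit4 does, edgeR called 0. There 1 had an unadjusted p below 0.05, and DESeq2 called 1 lower. Over all genes in CMs, 5287 of 18432 had an unadjusted p below 0.05, and DESeq2 called 1634 of 21621 lower.

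Among the other types ATF4 targets alone of the 8 lists held calls. In FBs 4 of 22 were higher (Chac1 4.45, Asns 3.79 and Mthfd2 2.47 led), in ECs 8 of 22 (Slc7a3 3.93, Chac1 3.90 and Asns 3.22) and in MACs 4 of 21 (Asns 4.91, Chac1 3.95 and Trib3 2.98), on the log2 scale and at an edgeR adjusted p below 0.05. The background of genes called higher was 0.321%, 0.384% and 0.164%. DESeq2 called 10, 14 and 12 of these ATF4 targets higher, and it also called more of all genes higher, at 240 of 20060, 187 of 18733 and 106 of 17700. After ambient subtraction edgeR called 0 of all 15941, 13488 and 11560 genes tested in these 3 types, list genes included (932, 369 and 243 at an unadjusted p below 0.05). The edgeR counts also moved with single mice, as leaving out Taz-KO mouse 5301 gave 12, 15 and 15 list genes called higher while leaving out any other mouse gave at most 1 in FBs, 9 in ECs and 0 in MACs. Calls over all genes moved in the same way, with 138, 134 and 100 higher without mouse 5301, 57, 62 and 23 with all mice, and as few as 7, 9 and 2 with another mouse left out. For p53, FoxO and glucocorticoid targets edgeR called 0 in these types, and DESeq2 called 1 p53 target in MACs. From 0 to 3 genes of a list had an unadjusted p below 0.05, where 1732 of 17762, 1312 of 16136 and 874 of 14065 genes did.

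**Figure D4:**
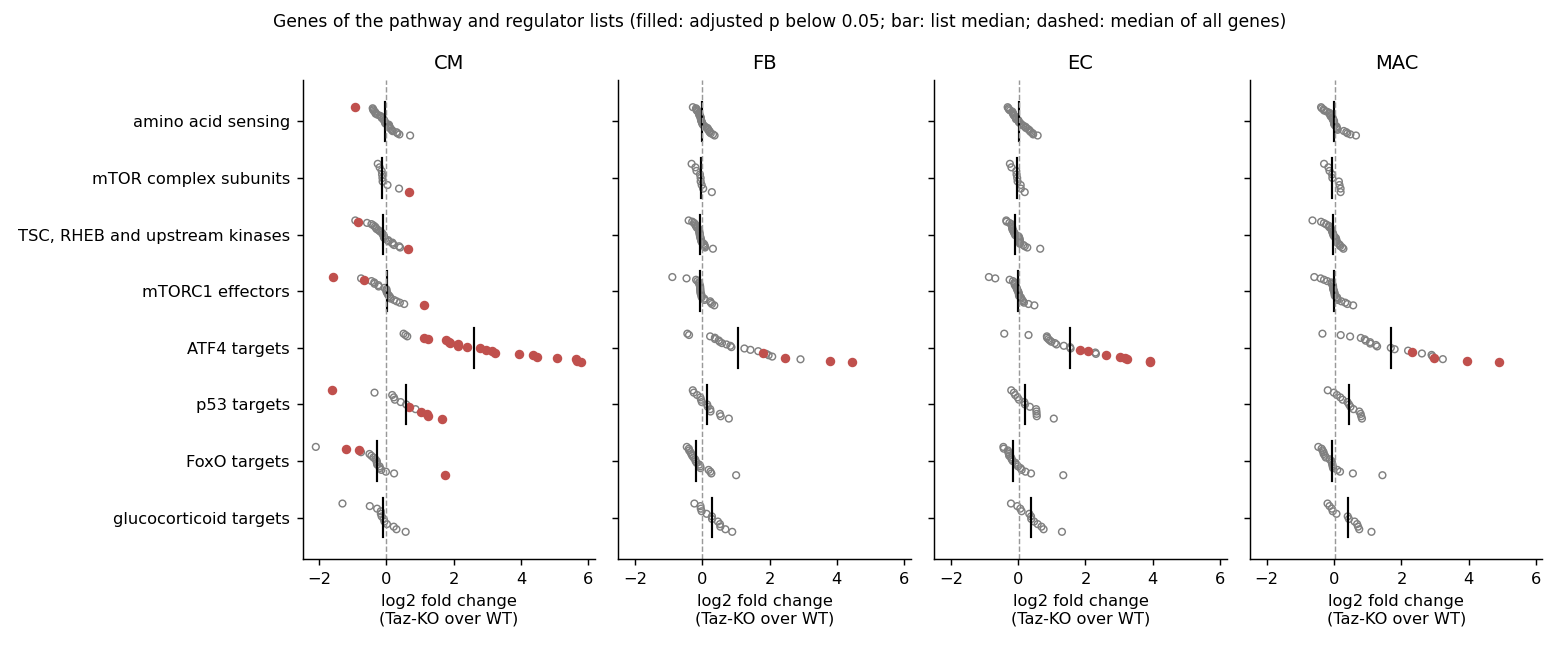
log2 fold change (Taz-KO over WT, x axis) of each gene of the 8 lists (rows) in CMs, FBs, ECs and MACs; filled points passed an edgeR adjusted p of 0.05, black bars are list medians and dashed lines the median of all genes. ATF4 targets lie to the right in CMs with a median of 2.60, and the 4 pathway lists centre near 0 in every type.

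The genes whose levels were most like those of a sestrin over the 32 sums of 8 mice and 4 types were found by Pearson correlation of log2(CPM + 1) among 10428 genes with a mean of at least 10 CPM. For Sesn1 they were Osbpl8 (r = 0.943), Manba (0.942) and Immp2l (0.937). For Sesn2 they were Slc7a5 (0.947), Ostn (0.94) and Trib3 (0.937), and for Sesn3 Gabra3 (0.941), Ppfia2 (0.937) and Rftn2 (0.934). The 32 sums share mice, libraries and depth, so the values rank genes by likeness and carry no test.

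**Figure D5:**
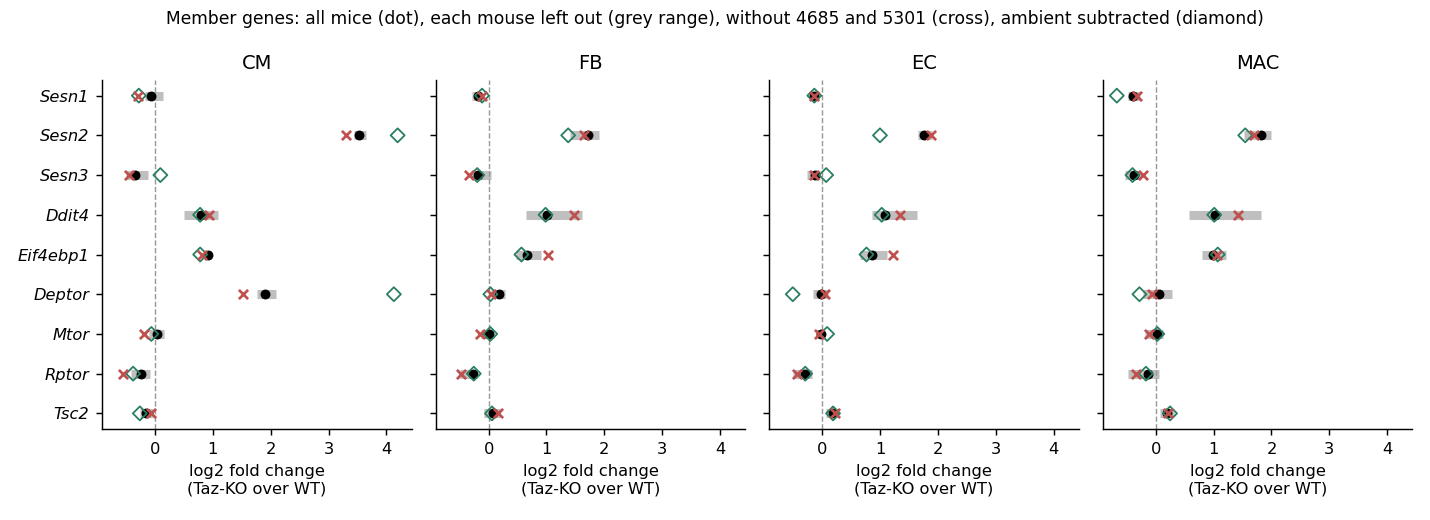
log2 fold change (Taz-KO over WT, x axis) of the 9 members (rows) in CMs, FBs, ECs and MACs with all 8 mice (dots), with each mouse left out in turn (grey ranges), without mice 4685 and 5301 (crosses) and after ambient subtraction (diamonds). Sesn2 stays above 0 in all 4 types, at 3.31 to 4.19 in CMs, while Deptor in CMs moves from 1.90 to 4.13 after subtraction and Mtor crosses 0.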

How the data were processed

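Nuclei of 4 WT and 4 Taz-KO hearts were sequenced with 10x Genomics 3′ chemistry. The UMI counts per gene and barcode were deposited by the authors, who made them with Cell Ranger 6.0.1 on mm10 with intronic reads counted. A barcode had to hold 800 UMIs or more from no fewer than 250 genes, scored doublets (16231) were removed, and nuclei were clustered at resolution 0.9 into 38 clusters, of which 18 were named from markers and the other 38765 nuclei left unnamed. A mixed B and T lymphocyte cluster was not tested. UMIs were summed per mouse and type, from 43897 to 99790945 a sum, and CPM was computed here without mitochondrial genes.

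edgeR 4.0.16 (R 4.3.3) fitted a quasi-likelihood model per type with TMM scaling and a low-count filter, and p-values were adjusted by Benjamini-Hochberg over all genes. DESeq2 1.42.0 was an alternative. The fit was tested on simulated data, where most 2-fold changes were missed in all 4 main types, so counts of 0 calls leave room for small changes. The members, the 8 gene lists (147 genes, 146 found) and the marker lists were chosen with earlier results of these data known. Named genes are the members, Taz, list genes past an adjusted p of 0.05 (the largest log2 fold changes, up to 4 a list in CMs and 3 elsewhere) and the 3 genes most like each sestrin. The alternatives were RLE scaling, no filter, other clustering, marker-pair typing, ambient subtraction, a mitochondrial limit, a stricter threshold, another thinning depth and pseudocount, and fewer mice. The mice are separate animals, and thinned shares and counting cover sampling error only.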

Additional observations from a re-analysis of the deposited data

Results flagged for a closer look

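In 72 groups of 4 mice (9 members, 4 cell types, both genotypes), 2 had a mouse far from the other 3, where chance gives about 1 in 20 groups. Sesn2 in Taz-KO ECs was at 5.99 CPM in mouse 5301, while the other Taz-KO mice lay between 14.7 and 16.1 CPM, a gap of 0.863 of the group's range. Rptor in Taz-KO FBs was at 169 CPM in mouse 5301, while the other Taz-KO mice lay between 105 and 112 CPM, a gap of 0.894 of the range. Both values come from the library with 5571 barcodes, the lowest mitochondrial share (1.57%) and the lowest ambient share removed in FBs and ECs, and the part these play was not tested.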

How the results depend on the processing

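The log2 fold changes of the members kept their sign in 93 of 93 alternatives where the mice of the genotypes did not overlap and in 416 of 456 where they did, the 40 others lying on the far side of 0. Values without overlap were grouped by that separation, and most alternatives reuse the same sums or fewer of the same mice. Their sign could hardly change, so the 93 of 93 is a description and no support. List genes called higher in CMs (28) were 15 at an adjusted p below 0.001 with a log2 fold change above 0.58, and 25 to 28 with a mouse left out. Those called lower (7) were 2 without Taz-KO mice 4685 and 5301, 14 after ambient subtraction, 0 at the stricter threshold and 4 to 8 with a mouse left out. Over all genes the lower calls in CMs (1221) were 694 without both mice, 1637 after ambient subtraction and 169 at the stricter threshold. In FBs the higher calls (4) were 10 by DESeq2, 9 without both mice, 0 after ambient subtraction, 0 at the stricter threshold and 0 to 12 with a mouse left out, and DESeq2 gave 1 lower call. In ECs the higher calls (8) were 14 by DESeq2, 0 after ambient subtraction, 0 at the stricter threshold and 0 to 15 with a mouse left out, and DESeq2 gave 2 lower calls. In MACs the higher calls (4) were 14 by DESeq2 (which was run on 146 list genes, against 142 that passed the filter), 11 without the low-count filter, 12 without both mice, 12 with marker-pair typing, 0 after ambient subtraction, 0 at the stricter threshold and 0 to 15 with a mouse left out. In FBs, ECs and MACs the highest counts came without mouse 5301. Member calls in the further types (0) were 2 without the filter, where calls over all genes were also more numerous. An exact sign-flip test of the order of the 4 main types separated the top types of 5 members, of 0 without both mice and of 3 to 4 with a mouse left out, but it picked each pair on WT mice that it then used, so nothing rests on it.

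Log2 fold changes that moved by more than the spread between mice were, after ambient subtraction, Sesn1 in MACs (-0.67), Sesn2 in CMs (4.19) and ECs (1.00), Sesn3 in CMs (0.092), and Deptor in CMs (4.13) and ECs (-0.51). Without both mice they were Deptor (1.52), Mtor (-0.19) and Rptor (-0.55) in CMs, and Mtor in CMs ran from -0.10 to 0.15 with a mouse left out. With 3000 UMIs per nucleus the differences in shares (percentage points) were 2.70 for Sesn2 in ECs, 3.96 for Sesn2 in MACs, 18.1 for Deptor, 2.30 for Mtor and -0.60 for Tsc2 in CMs, and at most 5% mitochondrial UMIs gave 14.8 for Deptor in CMs. The cause was not tested. The mitochondrial limit left enough mice to compare genotypes in CMs only, without WT mouse 4909. It left thinned shares of 1 WT and 2 Taz-KO mice in FBs, and of 2 Taz-KO mice alone in ECs and MACs. The order of types was not run under this limit. Marker-pair typing gave no value for the further types. No paired analysis of the genotypes was run, because no pairing of mice by litter or batch was at hand. Mice 4685 and 5301 limit the depth in small types, down to 6 nuclei.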
